A study of Homo sapiens with 4 samples.

Results

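The genes described here carry the type I interferon signal from the cell surface to the nucleus: the receptor chains IFNAR1 and IFNAR2, the kinases JAK1 and TYK2, the transcription factors STAT2 and IRF9, and the interferon regulatory factors IRF1, IRF3 and IRF7. They were chosen by gene symbol, and each of the 9 symbols has 1 row among the 56657 rows of the count table. All 9 had enough reads to be tested, among 16817 tested genes. Type I interferons bind a receptor made of IFNAR1 and IFNAR2, which brings TYK2 and JAK1 together. These kinases phosphorylate the STAT proteins, and STAT2 joins IRF9 in ISGF3, the complex that enters the nucleus and switches on antiviral genes. IRF3 and IRF7 act earlier, switching on interferon genes when foreign nucleic acid is sensed, and IRF1 drives genes of the interferon gamma response.

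RNA was sequenced from TE5, an established esophageal squamous cell carcinoma line, in 2 libraries of cells with hairpin RNA against NUP153 (shNUP153, labelled as NUP153 knockdown) and 2 of cells with a control hairpin (shControl, labelled WT). NUP153 is a nucleoporin of the nuclear basket, and the comparison asks what its depletion does to gene expression. Both groups received their hairpin by lentivirus and were put under puromycin, and the cells were taken at day 7. The shNUP153 libraries are described as g1 and g2. No source used here says whether these are different hairpins or whether replicates are separate cultures. The p-values therefore reflect no more than the spread between these libraries, which may be technical. Effects of the hairpins on other genes cannot be told apart from those of NUP153 loss, and 1 cell line was used.

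The libraries held between 22606593 and 27396268 counts. Levels are given as CPM, which puts counts on a common library size by TMM, and differences as shNUP153 over shControl from edgeR's quasi-likelihood test, called at an adjusted p (Benjamini-Hochberg, over all tested genes) under 0.05. NUP153 measured 67.9 and 81.9 CPM in the shNUP153 libraries against 149 and 142 CPM in the shControl libraries, that is, −0.96 on the log2 scale with SE 0.06 (edgeR adjusted p = 1.05e-14), so the target was lower in both libraries labelled as knockdown. Of the 9 squamous epithelial markers checked, 8 could be tested, with a summed level of 2806 and 2802 CPM in shNUP153 and 2384 and 2387 CPM in shControl, and KRT14 was too low to test. Of the 8, KRT17 rose (log2 fold change 0.76), from a mean of 734 CPM in shControl to 1245 CPM in shNUP153, a wider gap than that of the sums. KRT5 (−0.68), KRT6A (−0.23) and PKP1 (−0.17) fell, and 4 did not pass, all with negative log2 fold changes. The higher sum in shNUP153 thus came from KRT17. Of 9 leukocyte markers 7 were too low to test, with at most 8 counts in a library, and of the other two ITGAM rose (log2 fold change 0.39, edgeR adjusted p = 0.0477). Of 9 fibroblast and endothelial markers 6 were too low, DCN and LUM among them at 0 in all libraries. The summed level of the last list was 25.7 and 24.99 CPM in shNUP153 against 12.8 and 11.7 CPM in shControl, most of it from CDH5, an endothelial cadherin gene that rose (log2 fold change 1.11). The endothelial marker VWF rose too (0.76, edgeR adjusted p = 0.0431), and PECAM1 had at most 3 counts in a library. The part of these markers in the results below was not tested.

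With NUP153 reduced, the ISGF3 genes STAT2 and IRF9 and the factor gene IRF1 were lower, while of the receptor and kinase genes IFNAR1 alone passed the test. Of the 9 genes, 3 fell (STAT2, IRF9 and IRF1), 1 rose (IFNAR1) and 5 did not pass the test (IFNAR2, JAK1, TYK2, IRF3 and IRF7). Among all tested genes 32.4% were called, 17.4% lower and 15% higher, so the share called among the 9 is close to what is seen across the table, and the size and direction of single genes carry the description. Their median log2 fold change was 0.04, beside 0.01 over all tested genes. Only STAT2 was called without shNUP153 replicate 1, and DESeq2 called 2 of the 9. Of all calls, 46.3% were higher with TMM scaling, 62.8% with total-count scaling and 57.6% with upper-quartile scaling.

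**Figure D1:**
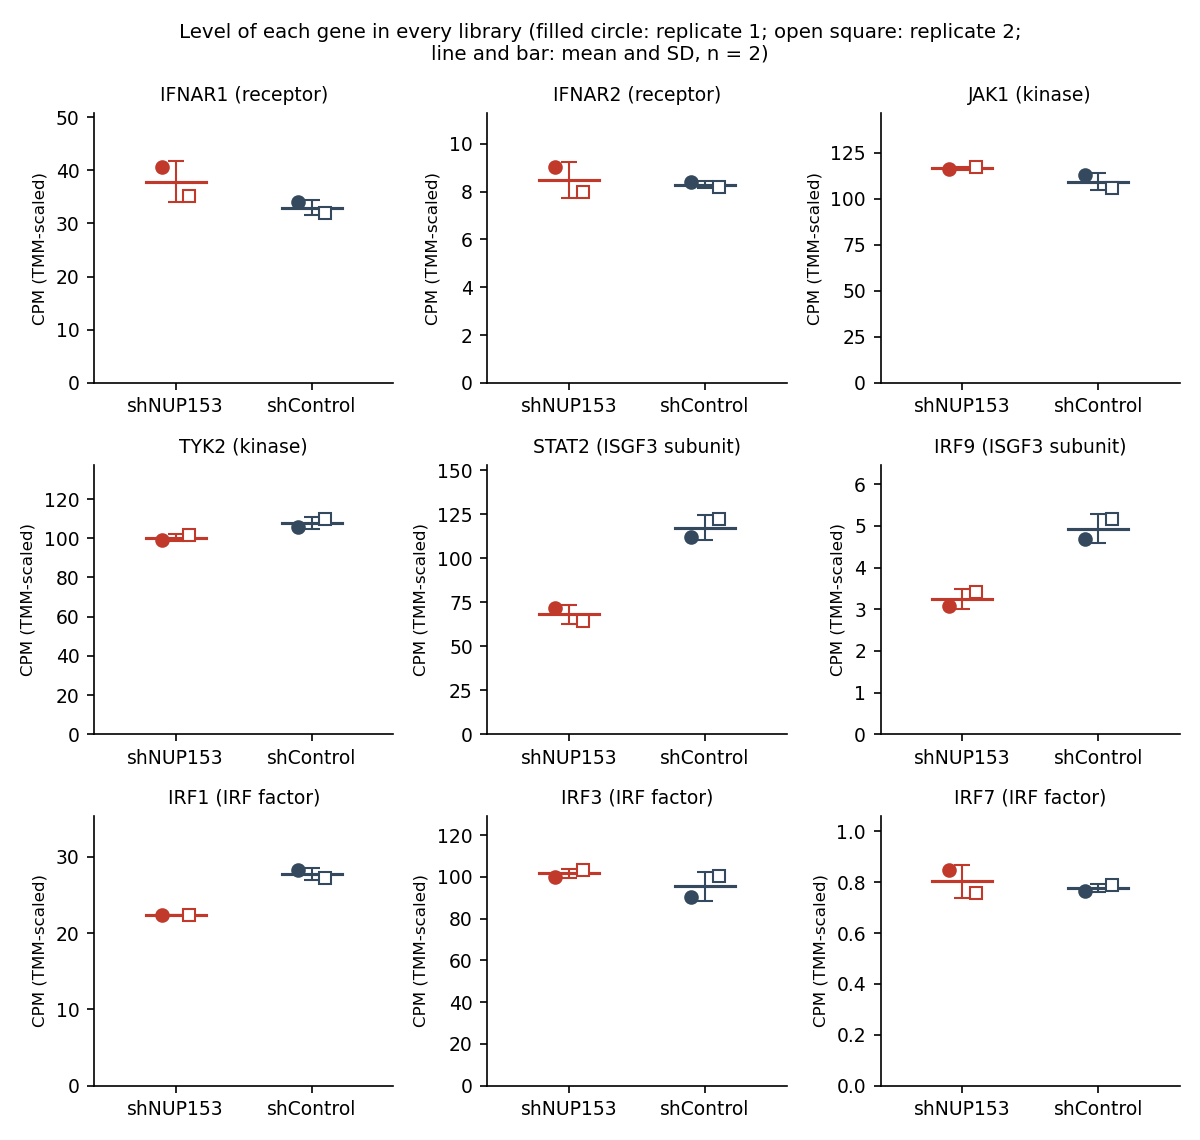
TMM-scaled CPM of each of the 9 genes in every library, shNUP153 left and shControl right in each panel, with points for libraries and a line and bar for the mean and SD of 2 libraries. STAT2 sat at 64.2 and 71.9 CPM in shNUP153 and at 112 and 123 CPM in shControl, the widest gap of the 9 relative to its level.

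STAT2, the STAT protein particular to interferon signalling through ISGF3, showed the largest difference of the 9. It measured 71.9 and 64.2 CPM in the shNUP153 libraries (1865 and 1524 counts) and 112 and 123 CPM in the shControl libraries (2492 and 3267 counts). Both shNUP153 libraries were well below both shControl libraries, by 1.56-fold to 1.91-fold over the 4 pairs of libraries. The means were 68.1 ± 5.43 CPM in shNUP153 and 117 ± 7.21 CPM in shControl (SD, n = 2 each), which is 1.73-fold lower. On the log2 scale STAT2 changed by −0.79 with SE 0.06 and a 95% interval of −0.91 to −0.67 (edgeR adjusted p = 6.28e-13). By p-value STAT2 ranked 121 among the 16817 tested genes. It was called under each of the 13 alternatives tried, with log2 fold changes of −0.87 to −0.71. As in any bulk measurement, fewer cells with the transcript and less of it per cell cannot be told apart.

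IRF9, the DNA-binding subunit that ISGF3 takes from the IRF family, fell too, from far lower counts. It had 80 and 81 counts in the shNUP153 libraries, or 3.08 and 3.41 CPM, against 104 and 138 counts in the shControl libraries, or 4.69 and 5.18 CPM. The groups did not overlap, and IRF9 was 1.52-fold lower, −0.61 on the log2 scale with SE 0.18 (edgeR adjusted p = 0.00884). The call was lost without shNUP153 replicate 1 (−0.53, adjusted p = 0.101), without shControl replicate 2 (−0.53, adjusted p = 0.0710) and with DESeq2 (adjusted p = 0.127). In GENCODE release 29 (GRCh38) IRF9 shares 1838 exonic bases with AL136295.5, a gene on the same strand that overlaps IRF9 over its whole 5513 bases. Their reads could be split between the rows, and the AL136295.5 row may also hold reads from outside IRF9. AL136295.5 had 23 and 19 counts in shNUP153 and 45 and 48 in shControl (log2 fold change −1.17, edgeR adjusted p = 0.0035, and 0.0788 with DESeq2). With both rows summed, a choice made after the values were seen, there were 103 and 100 counts in shNUP153 and 149 and 186 in shControl, or −0.74 on the log2 scale with SE 0.16 (edgeR adjusted p = 0.000301).

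The ratio of the counts of 2 genes in the same library needs no scaling between libraries. For IRF9 over STAT2 the ratios were 0.0429 and 0.0531 in shNUP153 and 0.0417 and 0.0422 in shControl. They did not overlap, but the first shNUP153 library lay near the shControl libraries. The difference was 0.19 on the log2 scale (exact two-sided permutation p = 0.333, the smallest that 2 libraries against 2 allow). It was 0.03 without shNUP153 replicate 2 and 0.34 without shNUP153 replicate 1. These ratios leave out the reads in the AL136295.5 row. With both rows summed IRF9 changed by −0.74 on the log2 scale, near the −0.79 of STAT2. The summed counts were 103 and 100 in shNUP153 and 149 and 186 in shControl. STAT2 had 1865 and 1524 counts in shNUP153 and 2492 and 3267 in shControl. Ratios of the summed counts over STAT2 overlapped between the groups, so the separation was seen for the IRF9 row alone. How shared reads were split was not tested.

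**Figure D2:**
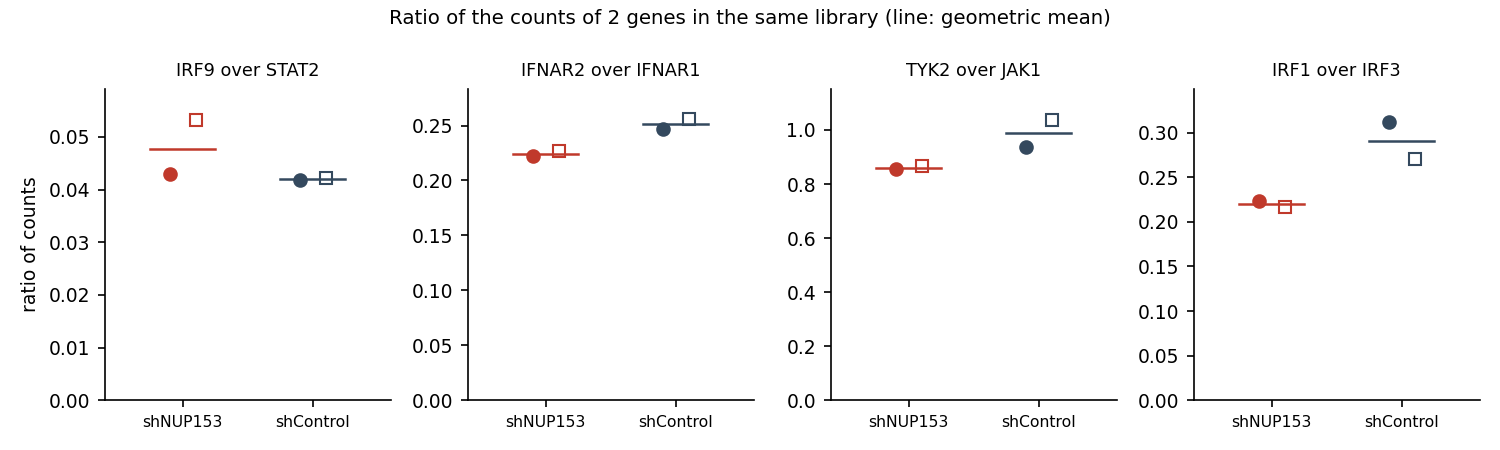
Ratio of the counts of 2 genes in the same library, shNUP153 left and shControl right, with circles for replicate 1, squares for replicate 2 and lines for geometric means. IRF1 over IRF3 was 0.217 and 0.224 in shNUP153 and 0.270 and 0.313 in shControl.

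IRF1, itself an interferon-inducible factor that binds the promoters of antigen presentation genes, was lower by a smaller amount. Its level was 22.4 CPM in each shNUP153 library (580 and 531 counts) and 28.3 and 27.2 CPM in the shControl libraries (627 and 724 counts). The groups did not overlap and libraries within a group lay close together. The log2 fold change was −0.31 (SE 0.08, edgeR adjusted p = 0.00354), 1.24-fold lower. Without shNUP153 replicate 1 the adjusted p was 0.0591, and without shNUP153 replicate 2 it was 0.0510, at log2 fold changes of −0.31 each. C5orf56 overlaps IRF1 by 1716 exonic bases on the opposite strand, and at 84 and 79 counts in shNUP153 and 66 and 128 in shControl it did not pass the test (log2 fold change −0.26, edgeR adjusted p = 0.354).

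IRF3 and IRF7, the factors that act on interferon genes, did not pass the test, at very different levels. IRF3, present before infection in most cells, measured 100.01 and 103 CPM in shNUP153 and 90.4 and 100.4 CPM in shControl. The higher shControl library lay within the shNUP153 values. Its log2 fold change was 0.09 (95% interval −0.03 to 0.20, edgeR adjusted p = 0.240), and it was called higher with total-count scaling (0.15, adjusted p = 0.0300) and without shControl replicate 2 (0.17, adjusted p = 0.0182). BCL2L12 overlaps IRF3 by 734 exonic bases on the opposite strand and fell (−0.22, edgeR adjusted p = 0.0119, but 0.0769 with DESeq2 and 0.0744 with total-count scaling). The log2 fold change of BCL2L12 was weaker without shNUP153 replicate 2 (−0.16) and without shControl replicate 2 (−0.15). Reads from the shared stretch could be assigned to one of the pair only if counting was by strand, which no source used here says. IRF7, which amplifies the interferon response once induced, had 22 and 18 counts in shNUP153 and 17 and 21 in shControl. The 95% interval of its fold, shNUP153 over shControl, ran from 0.599 to 1.79, so at this depth neither direction was detectable (log2 fold change 0.05, edgeR adjusted p = 0.941). The count of IRF1 per count of IRF3 was 0.224 and 0.217 in shNUP153 and 0.313 and 0.270 in shControl, a difference of −0.40 on the log2 scale (pooled SD 0.107; exact permutation p = 0.333, the smallest possible), so IRF1 was lower relative to IRF3 in both shNUP153 libraries whatever the scaling between libraries.

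At the receptor, IFNAR1, the chain that TYK2 binds, rose slightly. It measured 40.6 and 35.1 CPM in shNUP153 and 33.9 and 32.0 CPM in shControl. The lower shNUP153 library was only just above the higher shControl library. The log2 fold change was 0.20 (SE 0.08, edgeR adjusted p = 0.0403), 1.15-fold higher. That call was lost without shNUP153 replicate 1 (0.10, adjusted p = 0.567), without shControl replicate 2 (0.16, adjusted p = 0.145), when low counts were not filtered (0.0754) and with DESeq2 (adjusted p = 0.233). IFNAR2, the chain that JAK1 and STAT2 bind, measured 9.02 and 7.97 CPM in shNUP153 and 8.38 and 8.18 CPM in shControl. The shControl values lay between the shNUP153 values, and the log2 fold change was 0.04 (95% interval −0.22 to 0.30, edgeR adjusted p = 0.849). It shares 2038 exonic bases with AP000295.1 on the same strand, a row at 0 in all libraries, and 1803 with IL10RB-DT on the opposite strand, which had 3 to 5 counts. The count of IFNAR2 per count of IFNAR1 was 0.222 and 0.227 in shNUP153 against 0.247 and 0.256 in shControl, lower in both shNUP153 libraries (exact permutation p = 0.333, the smallest possible).

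The kinase genes differed little and in opposite directions, and neither passed the test. JAK1 measured 116 and 117 CPM in shNUP153 and 113 and 106 CPM in shControl, a log2 fold change of 0.09 (95% interval −0.01 to 0.20, edgeR adjusted p = 0.184). TYK2 measured 99.2 and 102 CPM in shNUP153 and 106 and 110.0 CPM in shControl, a log2 fold change of −0.11 (95% interval −0.21 to 0.0021, edgeR adjusted p = 0.129). For both genes the groups did not overlap, as was the case for 6 of the 9 genes and for 64.4% of all tested genes. JAK1 was called higher with total-count scaling (0.16, adjusted p = 0.0199), with upper-quartile scaling (0.14, adjusted p = 0.0436) and without shControl replicate 1 (0.14, adjusted p = 0.0448), and TYK2 was called under none of the 13 alternatives. TYK2 per JAK1 count was 0.855 and 0.867 in shNUP153 and 0.939 and 1.04 in shControl, so the balance between the kinase transcripts differed by −0.20 on the log2 scale (pooled SD 0.0731, and −0.13 without shControl replicate 2; exact permutation p = 0.333, the smallest possible).

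**Figure D3:**
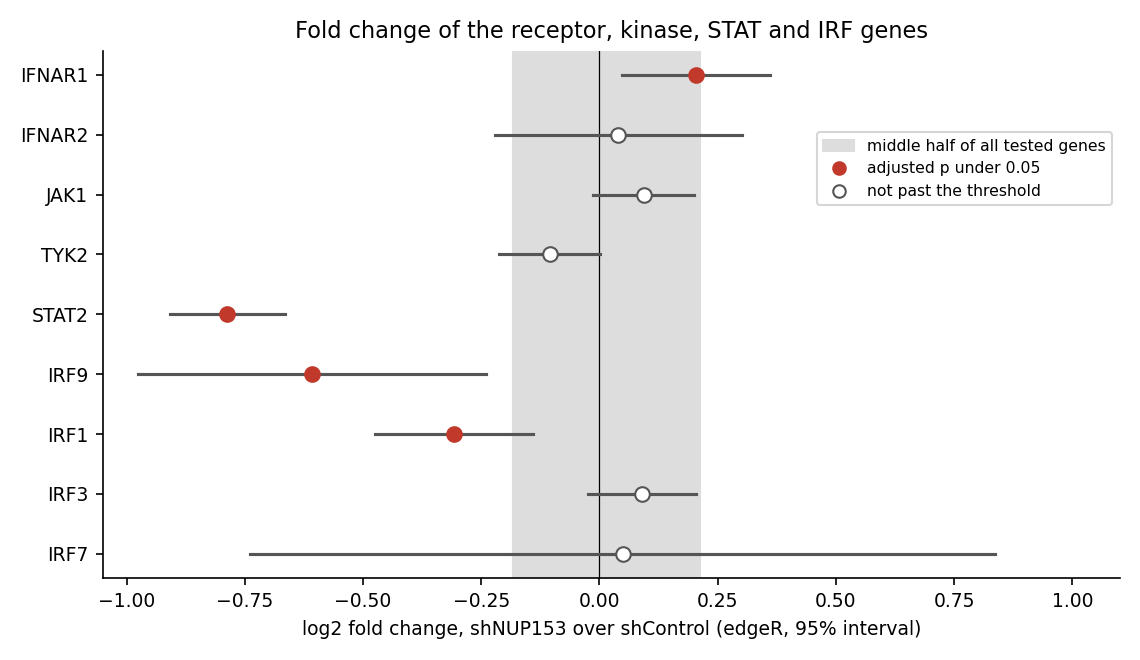
Log2 fold change of shNUP153 over shControl for each of the 9 genes from edgeR, with 95% intervals; filled points passed an adjusted p under 0.05, and the grey band spans the lower to the upper quartile of all tested genes, −0.18 to 0.21. STAT2 (−0.79), IRF9 (−0.61) and IRF1 (−0.31) lie below the band and the other points lie inside it.

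Divided by the length of the exons annotated for each gene in GENCODE release 29, all isoforms merged, levels could be set side by side between genes as CPM per kilobase. In shNUP153 the order was IRF3 (26.8 ± 0.620), JAK1 (18.5 ± 0.124), TYK2 (14.8 ± 0.247), STAT2 (11.1 ± 0.888), IFNAR1 (6.01 ± 0.607), IRF1 (2.87 ± 0.00156), IFNAR2 (1.84 ± 0.162), IRF9 (0.856 ± 0.0614) and IRF7 (0.306 ± 0.0241; SD, n = 2 each). In shControl the order was the same except that STAT2, at 19.2 ± 1.18 CPM per kilobase, stood between IRF3 (25.2 ± 1.87) and JAK1 (17.3 ± 0.750). STAT2 thus ranked 4 in shNUP153 and 2 in shControl. The lower STAT2 library in shControl (18.4) and the higher JAK1 library there (17.8) lay closer together than the STAT2 SD, so the order of those neighbours is not clear of the spread. Among the ISGF3 subunits of the 9, IRF9 was the scarcer in both groups. Merged lengths overstate the isoform in use, so the smaller basic set of GENCODE release 29 was also tried, after the values were seen. With it STAT2 again ranked 4 in shNUP153 (mean 20.1 CPM per kilobase) and 2 in shControl (mean 34.6), but in shNUP153 its libraries (21.2 and 18.9) overlapped those of TYK2 (20.6 and 21.1). The order within each of the pairs JAK1 and TYK2, IFNAR1 and IRF1, and IFNAR2 and IRF9 turned round in shControl, so these neighbours are not ordered firmly.

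The promoter windows of the 3 genes that fell are shown because STAT and IRF proteins act through short DNA elements there. A pair of motifs was searched on both strands. The IRF element, found in the sites that ISGF3 and IRF proteins bind, was GAAA, any 2 bases and GAAA. The GAS element, bound by STAT dimers, was TTC, any 3 bases and GAA. Windows span 250 bases before to 50 after a RefSeq start (GRCh38.p14), are written 5′ to 3′ on the gene's strand, and carry GAS matches in capitals. Promoter windows of 6 of the 9 genes were matched by symbol, and those of IFNAR2, IRF3 and IRF7 were not.
STAT2, chr12:56360058-56360357, minus strand: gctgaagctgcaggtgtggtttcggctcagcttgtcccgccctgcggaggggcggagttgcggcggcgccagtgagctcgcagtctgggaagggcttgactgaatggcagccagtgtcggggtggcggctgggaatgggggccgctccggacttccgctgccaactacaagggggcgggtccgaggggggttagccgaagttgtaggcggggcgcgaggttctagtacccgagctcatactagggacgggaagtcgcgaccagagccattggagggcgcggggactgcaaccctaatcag
IRF9, chr14:24161015-24161314, plus strand: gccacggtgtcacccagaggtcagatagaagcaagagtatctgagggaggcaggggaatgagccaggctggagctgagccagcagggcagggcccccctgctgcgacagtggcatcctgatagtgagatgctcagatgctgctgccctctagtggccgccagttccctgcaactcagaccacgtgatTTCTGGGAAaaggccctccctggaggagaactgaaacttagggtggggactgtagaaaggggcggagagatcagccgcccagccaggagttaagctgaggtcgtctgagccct
IRF1, chr5:132490724-132491023, minus strand: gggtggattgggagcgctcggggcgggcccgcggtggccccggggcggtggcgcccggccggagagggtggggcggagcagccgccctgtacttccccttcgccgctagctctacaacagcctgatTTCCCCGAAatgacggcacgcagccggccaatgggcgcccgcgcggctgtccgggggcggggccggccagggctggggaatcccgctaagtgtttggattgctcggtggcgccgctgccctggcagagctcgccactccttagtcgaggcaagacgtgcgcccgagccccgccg
The IRF9 window holds the GAS match TTCTGGGAA, which begins 63 bases before the start, and the IRF1 window holds TTCCCCGAA, which begins 124 bases before the start. A GAS element in the IRF1 promoter is a textbook site of STAT binding. The STAT2 window holds neither motif, and no window of the 6 genes holds the IRF element. Among 27305 genes with such windows, 4.38% hold the IRF element and 9.38% the GAS element in at least 1 window.

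Target genes of ISGF3 were lower in shNUP153. In a list of 32 ISGF3 target genes, 32 fell and 0 rose, with a median log2 fold change of −1.03 beside 0.01 for all tested genes, of which 17.4% fell. The list was chosen with earlier results of these data known. OASL, a relative of the antiviral OAS enzymes, fell to 78.8 ± 1.45 CPM in shNUP153, against 317 ± 25.2 CPM in shControl (SD, n = 2 each; log2 fold change −2.01, edgeR adjusted p = 2.99e-25). OAS2, which makes the activator of RNase L, had a log2 fold change of −1.74. IFIT1, whose product binds viral RNA, had −1.80 and its relative IFIT3 −1.63. In absolute size these exceed the −0.79 of STAT2, and the lower end of its interval, −0.91, does not reach the list median. Any relation between the STAT2 transcript and the level of these genes was not tested. Of the list, 30 to 32 were called when a library was left out. Of 27 of its genes with a promoter window, 21 held the IRF element (77.8%, against 4.38% of all genes). Most of the genes on that list are described in textbooks as interferon-inducible.

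Genes that answer to interferon gamma and IRF1 moved less uniformly. Of 21 tested, 11 fell, 1 rose and 9 did not pass, with a median log2 fold change of −0.23. Among all tested genes 17.4% fell and 15% rose. CXCL11 and CXCL10, chemokine genes for activated T cells, had log2 fold changes of −1.35 and −1.41, the guanylate-binding protein gene GBP4 −1.62, and the peptide transporter gene TAP1 −0.40. CD274, which encodes the checkpoint ligand PD-L1, was the gene that rose (log2 fold change 0.51, edgeR adjusted p = 0.00742; 0.124 without shNUP153 replicate 1, 0.0610 without shControl replicate 2 and 0.133 with DESeq2). GBP1, GBP2, GBP3 and GBP5 were among those that did not pass. The GBP and IFIT genes belong to families of similar sequence, so the counting could split reads between members. In 12 of 15 genes of that list with a window the IRF element was found. Among the genes that hold it are GBP4, CXCL10 and TAP1, which fell, CD274, which rose, and GBP1 and GBP3, which did not pass. The elements nearest the start in 4 of the target genes named above are shown with 10 bases on either side, the element in capitals, to set beside the windows of the factors.
IFIT1, chr10:89392510-89392539, plus strand: cactttccccTTTCGGTTTCcctaggtttc
IFIT3, chr10:89332468-89332497, plus strand: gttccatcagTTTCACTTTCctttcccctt
GBP4, chr1:89198927-89198956, minus strand: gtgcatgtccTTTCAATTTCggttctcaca
CXCL10, chr4:76023699-76023728, minus strand: tcatgttttgGAAAGTGAAAcctaattcac
In IFIT1, IFIT3 and GBP4 the element stands as its reverse complement on the gene's strand, with TTTC at both ends, and in CXCL10 it has GAAA at both ends.

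**Figure D4:**
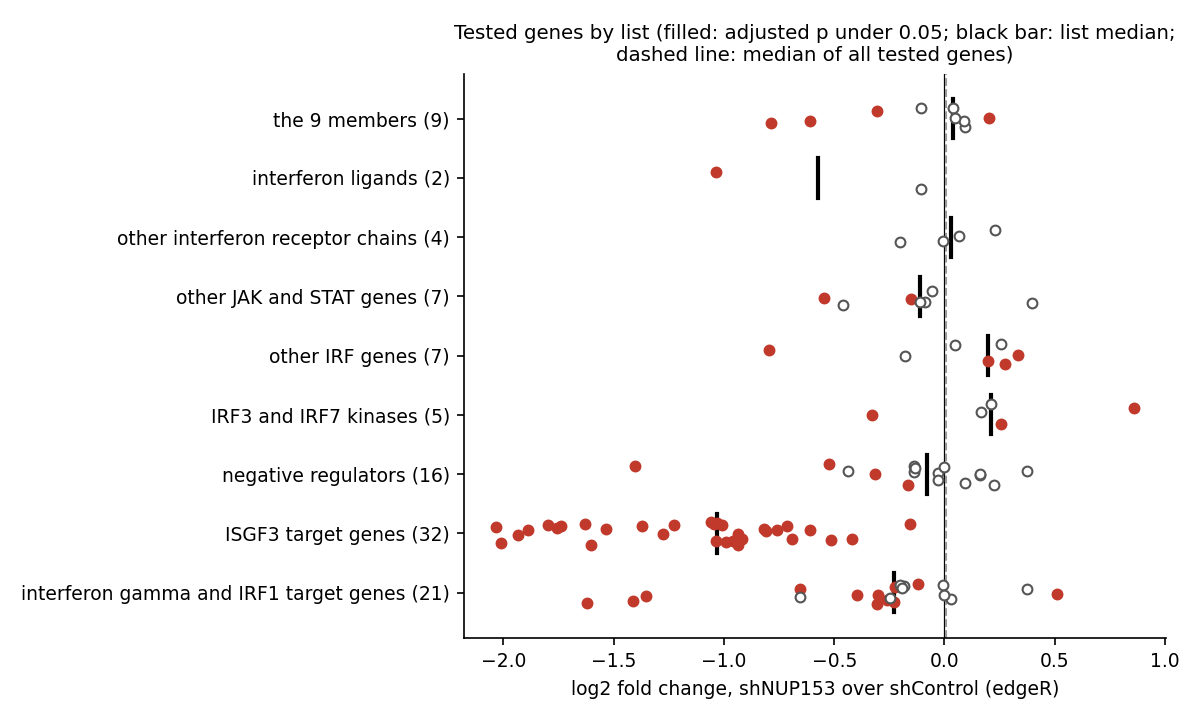
Log2 fold change of shNUP153 over shControl for every tested gene of each list, with the number tested in parentheses; filled points passed an adjusted p under 0.05, and black bars mark list medians. All 32 ISGF3 target genes lie below 0 (median −1.03), while the 9 signalling genes spread on both sides of 0 (median 0.04).

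Interferon ligand genes had few reads. Of 21, 12 were at 0 counts in all 4 libraries, which allows up to 3 counts or 0.113 to 0.135 CPM in a library, and only IFNE and IFNL1 had enough reads to be tested. IFNB1, the main type I interferon of epithelial cells, had 5 and 5 counts in shNUP153 and 7 and 10 in shControl and was not tested. IFNL1, a type III interferon that signals to the same JAK and STAT proteins through another receptor, had 15 and 28 counts in shNUP153 and 29 and 59 in shControl. It fell in edgeR's test (log2 fold change −1.04, SE 0.35, adjusted p = 0.0193), although the higher shNUP153 library was within 1 count of the lower shControl library before scaling. The log2 fold change was −0.60 without shNUP153 replicate 1 (adjusted p = 0.338), −0.59 without shControl replicate 2 (adjusted p = 0.314), but −1.62 when shNUP153 replicate 2 was left out. IFNE was at 1.35 CPM in shNUP153 and 1.45 in shControl (log2 fold change −0.11, edgeR adjusted p = 0.824).

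None of the 4 other interferon receptor chains passed the test by edgeR, and 1 of them, IFNLR1, was at an unadjusted p under 0.05. IFNGR1 and IFNGR2, the receptor of interferon gamma, had log2 fold changes of 0.06 and −0.01 (edgeR adjusted p = 0.358 and 0.952). IFNLR1 and IL10RB, which form the receptor of type III interferons, had 0.23 and −0.20 (edgeR adjusted p = 0.0947 and 0.138). IFNGR1 was called higher with total-count scaling (adjusted p = 0.0479). IFNLR1 was called higher with total-count (0.0283) and upper-quartile scaling (0.0435) and when genes under a mean of 5 CPM were left out (0.0485). IFNGR1 averaged 147 ± 7.40 CPM in shNUP153 and 141 ± 1.29 CPM in shControl (SD, n = 2 each). IFNLR1 averaged 14.2 ± 0.243 CPM in shNUP153 and 12.1 ± 0.831 CPM in shControl (SD, n = 2 each).

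Of 7 other JAK and STAT genes 2 fell and 0 rose (median −0.11), beside 17.4% lower and 15% higher among all tested genes. JAK2, the kinase of the interferon gamma receptor, was at 7.91 ± 0.214 CPM in shNUP153 and 11.6 ± 1.24 CPM in shControl (SD, n = 2 each; log2 fold change −0.55, edgeR adjusted p = 0.000615). STAT3, which answers to interleukin 6, was only 1.11-fold lower (log2 fold change −0.15, edgeR adjusted p = 0.00748), and its call was lost with total-count (0.134) and upper-quartile scaling (0.0580), without shNUP153 replicate 1 (0.0589) and without shNUP153 replicate 2 (0.135). STAT6, the STAT protein of interleukin 4, had −0.11 (edgeR adjusted p = 0.0642), and STAT5A, a STAT protein of growth hormone and cytokine receptors, −0.09 (edgeR adjusted p = 0.353). Among 7 other IRF-named genes, 3 rose and 1 fell. Those that rose encode IRF2-binding corepressors, IRF2BP1 (0.33), IRF2BPL (0.27) and IRF2BP2 (0.20). The calls of IRF2BP1 (adjusted p = 0.0841) and IRF2BP2 (0.138) were lost without shNUP153 replicate 1, and that of IRF2BP2 also without shNUP153 replicate 2 (0.0605) and with DESeq2 (0.0606). IRF8, known mainly from myeloid cells, fell from low counts, 55 and 54 in shNUP153 against 87 and 99 in shControl (log2 fold change −0.79, edgeR adjusted p = 0.00308, 0.0504 without shNUP153 replicate 1 and 0.0753 with DESeq2).

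Upstream of IRF3 and IRF7 lie the kinases TBK1 and IKBKE with their adaptors. IKBKE, the inducible kinase, fell to 34.4 ± 0.596 CPM in shNUP153, against 43.2 ± 0.446 CPM in shControl (SD, n = 2 each; log2 fold change −0.33, edgeR adjusted p = 0.00035). TBKBP1, an adaptor of TBK1, rose 1.81-fold (8.34 ± 0.297 CPM in shNUP153 and 4.63 ± 0.658 CPM in shControl, edgeR adjusted p = 2.04e-05), and the adaptor TANK rose by 0.26 on the log2 scale (edgeR adjusted p = 0.0232; 0.402 without shNUP153 replicate 2 and 0.184 with DESeq2). TBK1 itself was at 0.21 and AZI2 at 0.16 (edgeR adjusted p = 0.0622 and 0.282). TBK1 passed with total-count (0.0125) and upper-quartile scaling (0.0229) and when genes under a mean of 5 CPM were left out (0.0276).

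Of 16 negative regulators 4 fell and 0 rose (median −0.08), beside 17.4% lower and 15% higher among all tested genes. The number called is thus not above what is seen across all tested genes. USP18, an interferon-inducible protease that binds IFNAR2 and STAT2 and damps the receptor, fell 2.65-fold, to 21.5 ± 0.756 CPM in shNUP153 against 56.8 ± 5.52 CPM in shControl (SD, n = 2 each; edgeR adjusted p = 1.37e-16). SOCS2 was 1.44-fold lower (edgeR adjusted p = 6.23e-06) and the phosphatase gene PTPN1, which acts on JAK2 and TYK2, 1.24-fold lower (edgeR adjusted p = 9.9e-07). SOCS3, the inhibitor of interleukin 6 signalling, had a log2 fold change of −0.17 (edgeR adjusted p = 0.0426), a call lost under 9 of the 13 alternatives (adjusted p = 0.0512 to 0.269), among them leaving out shNUP153 replicate 1 (0.158), shNUP153 replicate 2 (0.269) or shControl replicate 2 (0.179). SOCS1, the inhibitor best known for interferon receptors and also on the interferon gamma list, was at 4.16 and 5.35 CPM in shNUP153 and 3.34 and 3.94 CPM in shControl and did not pass (log2 fold change 0.37, edgeR adjusted p = 0.121).

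**Figure D5:**
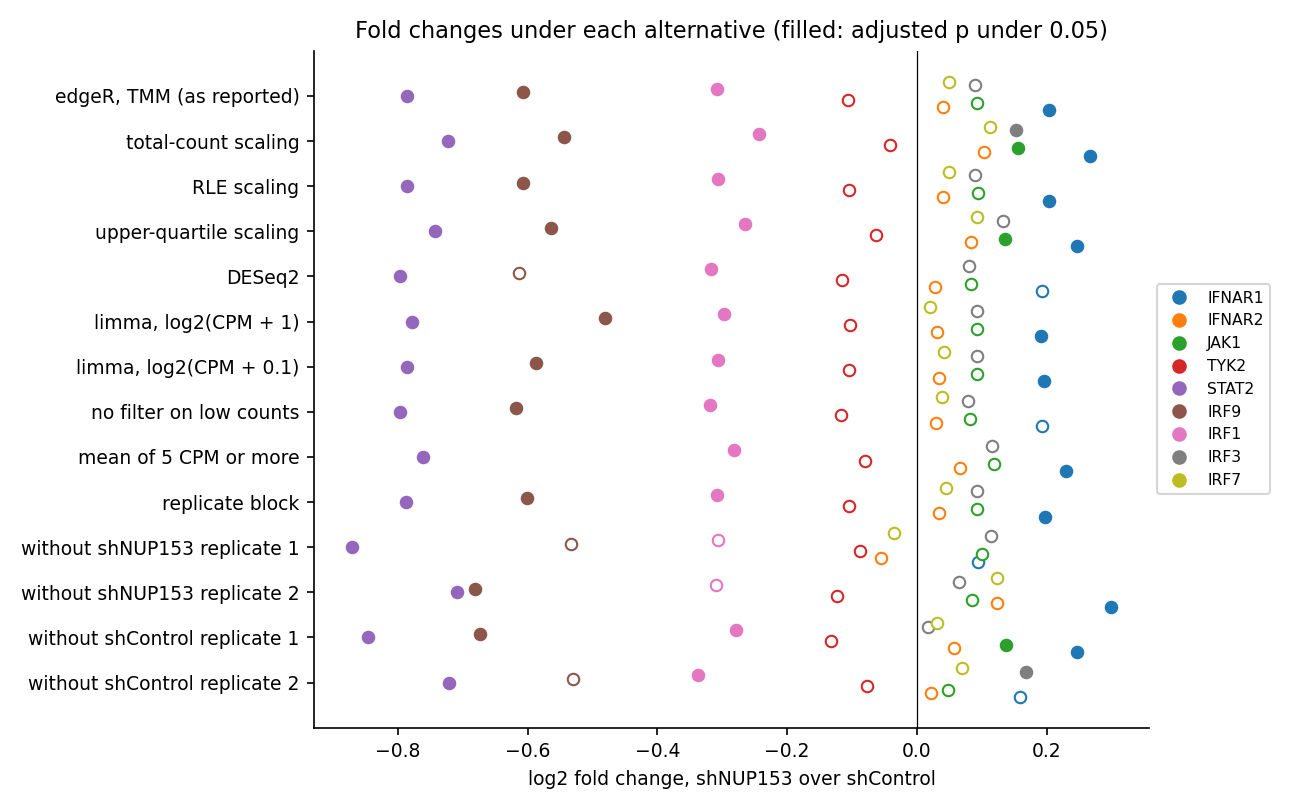
Log2 fold change of shNUP153 over shControl for each of the 9 genes as reported and under 13 alternatives in rows; filled points had an adjusted p under 0.05. STAT2 is filled in every row, between −0.87 and −0.71, and IRF9 and IRF1 stay below 0 in every row where they were tested.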

How the data were processed

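The deposited table holds Ensembl gene IDs with symbols and whole-number counts per library. Its name says FPKM, but library totals of the deposited counts differ and the values were treated as raw. Tools named in the submitters' processing notes are kallisto, DESeq2, Bowtie2 and deepTools, and the build is hg19, without roles or versions. No source used here says which tool counted, with what annotation, or whether by strand. The authors' deposited log2 ratio per gene, which entered no test, equals the log2 ratio of group mean counts with no scaling for library size. For the 9 genes it has the sign of the edgeR value, for example −0.76 for STAT2 and −0.59 for IRF9 in the authors' deposited table.

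Genes were kept by filterByExpr (minimum count 10, minimum total 15), scaled by TMM and tested two-sided with edgeR 4.0.16 in R 4.3.3 (glmQLFit, glmQLFTest), with limma 3.58.1 and DESeq2 1.42.0 as alternatives. SE was derived from the fold change and F statistic. In simulated counts for these 16817 genes, 50 genes were changed at each fold. Of these, 30% were called with a 1.2-fold change, 64% with 1.5-fold, 80% with 2-fold and 98% with 4-fold. Calls among 16617 genes left as they were numbered 11. In the data 5448 genes were called, far more than were changed in the simulation. The adjusted p depends on how many genes change, so these shares need not hold for the data. Replicates differed by more than sampling noise (chi-square per gene 3.09 within shNUP153 and 3.57 within shControl, over genes with 20 or more counts). Zero-count limits cover counting error only.

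The members and lists were chosen with earlier results of these data known. Named genes are the 9 members, NUP153, up to 5 tested genes of small lists or the 4 with the smallest p of larger ones, overlapping genes, and for called members the 3 most alike genes. CD274, SOCS1, AL136295.5, GBP1, GBP2, GBP3, GBP5, IFNB1, CDH5, PECAM1, DCN, LUM, VWF, ITGAM, KRT5, KRT6A, PKP1, KRT14 and KRT17 were named after their values were seen. Results for 1 gene of the lists are not reported here. Promoter windows come from RefSeq (GRCh38.p14). Exon lengths and overlaps come from the full set of GENCODE release 29 (GRCh38), not the build of the notes, so no coordinate of the table was used.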

Additional observations from a re-analysis of the deposited data

How the results depend on the processing

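Of the 9 genes, STAT2 kept its direction and call under all 13 alternatives (log2 fold change −0.87 to −0.71) and TYK2 was called in none (−0.13 to −0.04). Calls for IFNAR1, IRF9 and IRF1 were lost under the settings given with each gene. With only genes averaging at least 5 CPM, IRF9 and IRF7 gave no value, nor did IRF7 with DESeq2. Signs turned for IFNAR2 (−0.055) and IRF7 (−0.035) without shNUP153 replicate 1 (up to 0.12 for each with another library left out), and for IFNGR2 with total-count scaling (0.055), upper-quartile scaling (0.035), the 5 CPM filter (0.018) and without shNUP153 replicate 1 (0.017, with −0.034 as the lowest when a library was left out), and for STAT5A without shNUP153 replicate 1 (0.0023, with −0.18 as the lowest when a library was left out), none of them called. The cause of these changes was not tested.

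Of the 9 genes 4 were called, 1 higher and 3 lower. DESeq2 called 2 of them, with 0 higher. The number higher was 3 with total-count scaling, 2 with upper-quartile scaling and 0 without the filter on low counts. With a library left out, 1 to 5 were called, 0 to 2 higher and 1 to 3 lower. Over all tested genes 5448 were called, 2521 higher and 2927 lower, against 3228 and 1176 higher with DESeq2. With a library left out the count was 3027 to 5274, with 1312 to 2423 higher and 1715 to 2851 lower, lowest without shNUP153 replicate 1, where fewer libraries were fitted and the lone library was assumed to vary like the others. Among other receptor chains, 2 were called with total-count scaling, 1 with upper-quartile scaling and 1 with the 5 CPM filter, against 0 as reported, and 0 with a library left out. Of the other JAK and STAT genes 1 was called with total-count and 1 with upper-quartile scaling, and 1 to 2 with a library left out, against 2 as reported. Of the other IRF genes DESeq2 called 2, and 1 to 4 were called with a library left out. Of the ligands 0 or 1 was called with a library left out, the 5 CPM filter left none to test, and DESeq2 gave IFNL1 no adjusted p. The within-library ratios moved by less than their pooled SD with 1 count added.

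The replicate numbers are shared by the groups, but nothing in the labels says that they pair the libraries, so the libraries were not taken as paired. Deviations of same-numbered libraries from their group means did not correlate (−0.01 across genes, 2 pairs). With a replicate block 5465 genes were called, and of the named genes the call for SOCS3 was lost (adjusted p = 0.0512). Depth limits what can be said of low genes such as IRF7, with 17 to 22 counts in a library.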

Other observations

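Calls were also counted over all genes by whether a promoter window held the IRF or the GAS element. Of 16817 tested genes, 11122 were matched to a window by symbol. Among 439 with the IRF element 130 fell (29.6%) and 52 rose (11.8%), and among 10683 without it 2153 fell (20.2%) and 1732 rose (16.2%). With every gene of the lists set aside, 100 of 404 genes with the element fell (24.8%) and 51 rose (12.6%). For the GAS element, 229 of 938 genes with it fell (24.4%), against 2054 of 10184 without it (20.2%). These shares were chosen after values were seen and are descriptions with no test, since genes are not independent replicates.

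The 3 genes most like each called signalling gene, by Euclidean distance of centred log2 CPM over the 4 libraries among genes of similar level, were PARP14, UBE2L6 and SCARA3 for STAT2, with log2 fold changes of −0.79, −0.77 and −0.76. For IRF1 they were EBAG9 (−0.32), ITSN1 (−0.29) and STAU2 (−0.30). For IRF9 they were AL928654.2 (−0.68), PCDHB14 (−0.57) and LAMB4 (−0.78). For IFNAR1 they were MTMR14 (0.21), TRIM2 (0.22) and POLR3F (0.21), none of which passed the test (edgeR adjusted p = 0.0559 to 0.0758). With 4 libraries in 2 groups, such likeness mostly restates the group difference.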
